A study of Mus musculus with 12 samples.

Results

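Melanophages are macrophages that hold melanin taken up from pigment cells, and are found in skin. Those that carry MHC class II on their surface were compared with other skin macrophages of the same MHC-II class across 19938 genes. The comparison used 3 arrays of MHC-II-positive melanophages and 3 arrays of MHC-II-positive macrophages, 6 of the 12 arrays in the series. The other 6 arrays, 3 of MHC-II-negative melanophages and 3 of MHC-II-negative macrophages, entered the same fit and gave the same comparison in other arrays, and the labels do not say whether arrays of the 2 classes share animals. All cells came from the skin of untreated wild-type B6 mice kept under SPF conditions, and all 4 groups shared a sort for CD11b, absence of CD24, CD64, and absence of CCR2 and Ly6C. Melanophages were sorted with a high side scatter, a measure of granularity that pigment raises. The labels contradict each other for the macrophages: their phenotype entry says low side scatter and their titles say high. Whether replicate arrays stem from different mice is not stated, so each p-value reflects the spread among these samples alone, and that spread may be technical.

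MHC class II molecules show peptides to helper T cells, and in the dermis they mark macrophages and dendritic cells that can present antigen. Dermal macrophages clear debris and take up the pigment that melanocytes and dying melanophages release. Such cargo is handled in lysosomes, which are acidified by the vacuolar proton pump and hold cathepsins and other hydrolases.

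The genes called in the comparison were Cd207, Itgax and Slc2a1, all lower in melanophages. A gene was called at an adjusted p under 0.05 (limma, Benjamini-Hochberg over all genes). Of all genes, 0 were called higher and 3 were called lower, which is 0.015% of those tested. At an unadjusted p under 0.05, 650 genes (3.26%) were higher and 607 (3.04%) were lower, 6.3% in both directions. Arrays did not overlap for 1498 genes (7.51%) higher and 979 (4.91%) lower, and 34 genes (0.171%) were at least 2-fold higher and 75 (0.376%) at least 2-fold lower. The 250 bases upstream of the start of each called gene are shown because these genes carry the result. They come from RefSeq (GRCm38.p6), which held all 3, and are written 5′ to 3′ on the strand of the gene, with capitals marking motif matches. The positions are chr6:83677858-83678107 on the minus strand for Cd207, chr7:128129300-128129549 on the plus strand for Itgax, and chr4:119108495-119108744 on the plus strand for Slc2a1.
Cd207: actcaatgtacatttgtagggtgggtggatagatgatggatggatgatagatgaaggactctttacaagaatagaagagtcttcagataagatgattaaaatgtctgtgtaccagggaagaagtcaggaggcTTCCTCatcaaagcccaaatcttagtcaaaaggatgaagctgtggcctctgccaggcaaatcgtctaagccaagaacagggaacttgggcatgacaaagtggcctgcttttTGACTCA
Itgax: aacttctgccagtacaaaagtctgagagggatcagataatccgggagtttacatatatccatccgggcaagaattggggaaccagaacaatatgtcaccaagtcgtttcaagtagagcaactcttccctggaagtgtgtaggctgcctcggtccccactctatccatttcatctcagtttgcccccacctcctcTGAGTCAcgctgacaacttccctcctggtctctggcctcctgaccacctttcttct
Slc2a1: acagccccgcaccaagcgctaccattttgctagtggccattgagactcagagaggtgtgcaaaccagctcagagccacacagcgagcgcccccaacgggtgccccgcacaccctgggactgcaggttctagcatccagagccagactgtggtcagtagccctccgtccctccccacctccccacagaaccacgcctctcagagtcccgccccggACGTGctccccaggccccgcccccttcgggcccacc
The motifs searched on both strands were the PU.1 core GAGGAA, the AP-1 motif TGANTCA and the HIF core ACGTG. Counted from the start, the Cd207 window held TTCCTC, the reverse complement of the PU.1 core, from base -118 and TGACTCA from base -7. The Itgax window held TGAGTCA from base -56, and the Slc2a1 window held ACGTG from base -36. Among 27025 promoter windows of this length, 23.1% held the PU.1 core, 6.87% the AP-1 motif and 16.6% the HIF core. A match describes the letters of the window and is not evidence of binding.

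Cd207 encodes langerin, a C-type lectin of Langerhans cells and some dermal dendritic cells. Its log2 values were 3.16, 3.39 and 2.95 in MHC-II-positive melanophages and 5.46, 4.61 and 5.43 in MHC-II-positive macrophages. The melanophage arrays all lay below the macrophage arrays, and near the array medians of 2.97 to 3.08. Cd207 was lower by a log2 difference of -1.999 ± 0.21 SE (95% interval -2.47 to -1.53, adjusted p = 0.0192), with group means of 3.17 ± 0.22 and 5.17 ± 0.48 (SD, n = 3 each). The fold of 3.997 is a lower bound, as for any gene with a group mean under 3.58, which is 0.5 above the highest array median.

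Itgax encodes CD11c, the integrin alpha chain used to recognise dendritic cells and many tissue macrophages. Its log2 values were 4.06, 3.83 and 4.20 in melanophages and 5.85, 5.20 and 5.35 in macrophages, without overlap. The log2 difference was -1.44 ± 0.16 SE (95% interval -1.80 to -1.08, adjusted p = 0.0229), or 2.71-fold, with means of 4.03 ± 0.19 and 5.47 ± 0.34 (SD, n = 3 each). Slc2a1 encodes GLUT1, the main glucose transporter of activated myeloid cells. Its log2 values were 6.13, 5.82 and 6.19 in melanophages and 7.69, 7.39 and 7.22 in macrophages, again without overlap. The log2 difference was -1.39 ± 0.15 SE (95% interval -1.71 to -1.06, adjusted p = 0.0192), or 2.62-fold, with means of 6.05 ± 0.20 and 7.43 ± 0.24 (SD, n = 3 each).

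All 3 genes kept their direction in each of 25 alternative settings, but the calls did not all hold. All 3 calls ended after quantile normalization again (adjusted p = 0.061 each) and with the 6 arrays of the 2 groups alone (0.31 each). With the 3 runs of sample codes in the titles as a block, a setting added after seeing the data, Itgax stayed called (0.0338) and Slc2a1 (0.0529) and Cd207 (0.0609) did not. The labels do not say what these codes mean. When each of the 12 arrays was left out in turn, the call of Cd207 ended 8 times (adjusted p 0.0502 to 0.108), that of Itgax 7 times (0.0571 to 0.125) and that of Slc2a1 6 times (0.0502 to 0.108). In the MHC-II-positive class, all 3 calls ended without replicate 2 or 3 of the melanophages, those of Cd207 and Itgax without melanophage replicate 1, and those of Cd207 and Slc2a1 without macrophage replicate 1. In the MHC-II-negative class, which shares the estimate of the spread, all 3 ended without replicate 1 or 2 of the macrophages or replicate 1 of the melanophages, and those of Cd207 and Itgax without melanophage replicate 3. Without MHC-II-positive macrophages replicate 3, which stood farthest from its group mates of these 6 arrays, 20 genes were called, 2 higher and 18 lower.

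**Figure D1:**
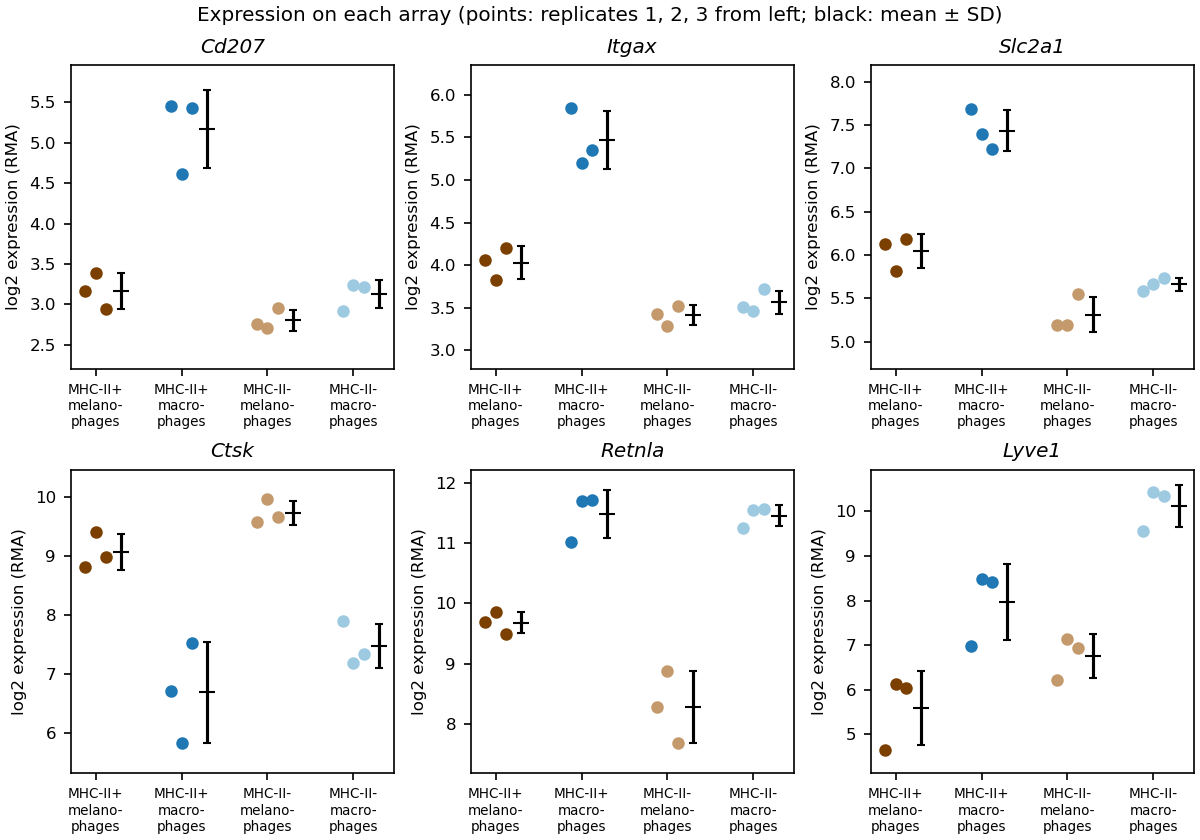
Log2 expression (y axis) of 6 genes on each of the 12 arrays, with 3 points per group for replicates 1, 2 and 3 and the mean ± SD in black. In the MHC-II-positive groups the melanophage points of Cd207, Itgax, Slc2a1, Retnla and Lyve1 lie below the macrophage points, and those of Ctsk lie above.

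In the MHC-II-negative class the log2 differences of the same 3 genes were closer to 0. Cd207 was 2.76, 2.71 and 2.95 in MHC-II-negative melanophages and 2.92, 3.24 and 3.22 in MHC-II-negative macrophages, a log2 difference of -0.32 ± 0.21 SE near the array medians. Itgax differed by -0.15 ± 0.16 SE and Slc2a1 by -0.35 ± 0.15 SE on the log2 scale, and only for Slc2a1 did the arrays not overlap. The MHC-II-negative means of Itgax, 3.41 and 3.56, also lay near the array medians, under the limit of 3.58. A difference of Cd207 or Itgax in this class could therefore be hidden. The difference between the classes was -1.68 ± 0.30 SE for Cd207, -1.28 ± 0.23 SE for Itgax and -1.04 ± 0.21 SE for Slc2a1. These differences did not pass the test: 0 of 19938 genes were called for the interaction in limma, 820 had an unadjusted p under 0.05 (4.11%), and the lowest adjusted p was 0.965.

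Among genes at least 2-fold different whose 3 and 3 arrays did not overlap, 22 were higher (0.11%) and 53 lower (0.266%) in MHC-II-positive melanophages. The 12 in each direction with the smallest p were named, leaving out predicted genes, clone names and a few gene families. None of the 12 higher genes was called (adjusted p 0.127 to 0.524).

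Ctsk, the cathepsin with which osteoclasts degrade bone collagen, had the largest positive difference of all genes. Its log2 values were 8.81, 9.40 and 8.97 in melanophages and 6.71, 5.82 and 7.52 in macrophages. All melanophage arrays lay above all macrophage arrays, with a log2 difference of 2.38 ± 0.36 SE (5.19-fold, adjusted p = 0.127). In the MHC-II-negative class, Ctsk differed by 2.25 on the log2 scale, also without overlap. Atp6v0d2, a subunit of the vacuolar proton pump, read 9.83, 9.65 and 9.26 in melanophages and 7.87, 6.99 and 8.80 in macrophages. Its difference was 1.69 ± 0.45 SE (3.23-fold, adjusted p = 0.468), against 3.01 in the MHC-II-negative class. Gpnmb, a glycoprotein of melanosomes and lysosomes, read 7.28, 6.19 and 6.19 against 5.24, 4.56 and 4.93, a difference of 1.65 ± 0.45 SE (3.13-fold, adjusted p = 0.513). It differed by 2.57 in the MHC-II-negative class. In the MHC-II-negative class the arrays of these 3 lysosome and pump genes did not overlap, as for 5.57% of all genes in this direction. In the MHC-II-positive class, absence of overlap was part of the rule that named them.

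Lyz1 is a lysozyme whose close paralog Lyz2 may share probes, so its value is uncertain. Its log2 values were 11.55, 11.62 and 11.33 in melanophages and 10.97, 10.17 and 10.22 in macrophages, a difference of 1.04 ± 0.22 SE (adjusted p = 0.26). Hpse, the heparan sulfate-cleaving enzyme heparanase, differed by 1.11 ± 0.31 SE with values of 7.66, 7.20 and 7.62 against 6.79, 6.73 and 5.62. Cd200r4, an activating receptor of the CD200 receptor family, differed by 1.14 ± 0.20 SE with values of 5.75, 5.45 and 5.13 against 4.02, 4.52 and 4.38. Cnrip1, a protein that binds the cannabinoid receptor, differed by 1.29 ± 0.21 SE and by 1.53 in the MHC-II-negative class. Serpinb2, the plasminogen activator inhibitor of monocytes, read 4.39, 4.58 and 4.61 against 3.53, 3.42 and 3.15, a difference of 1.16 ± 0.18 SE. Its MHC-II-negative difference was -0.17, and the difference between classes was 1.33 ± 0.26 SE. Both MHC-II-negative means of Serpinb2, 2.92 and 3.10, lay near the array medians, so a difference there could be hidden. Rpp38, a subunit of ribonuclease P, differed by 1.47, Tatdn1 by 1.13, Wfdc18 by 1.03 and Mospd1 by 1.06 on the log2 scale.

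**Figure D2:**
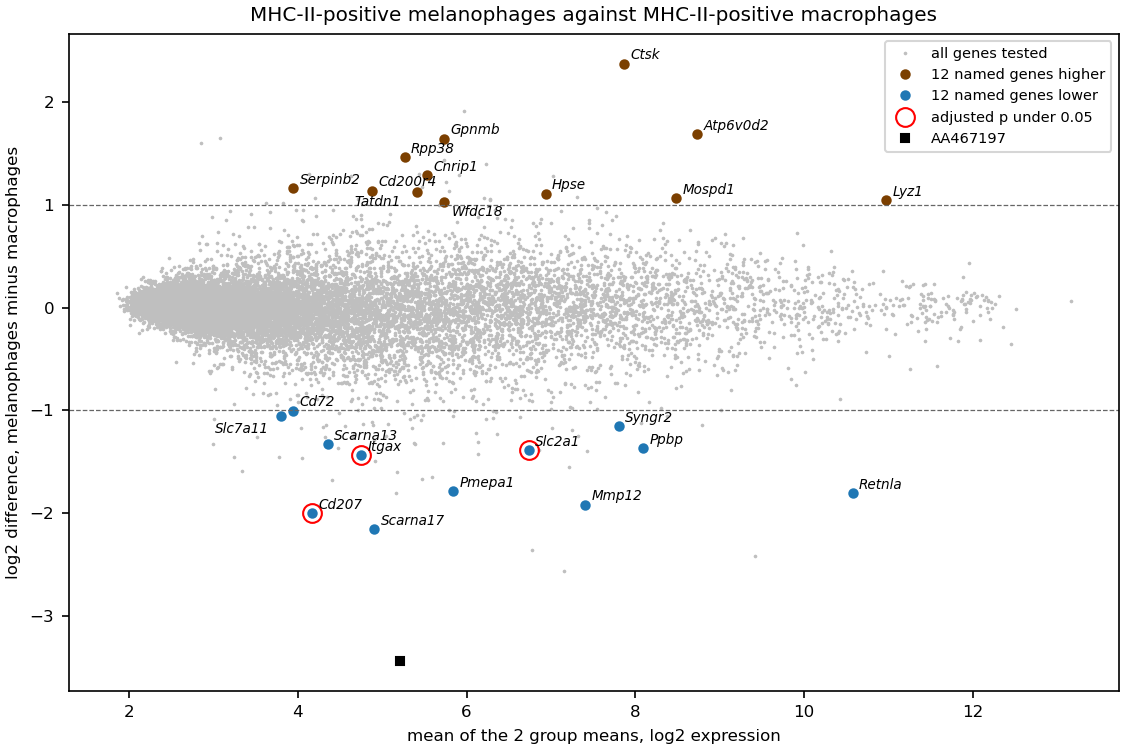
Log2 difference, MHC-II-positive melanophages minus MHC-II-positive macrophages (y axis), against the mean of both group means (x axis, log2), for 19938 genes, with dashed lines at a 2-fold difference. The called genes, circled in red, all lie below 0, and AA467197 has the lowest value at -3.44.

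Among the 12 lower genes, 3 were the called ones and the other 9 had adjusted p values from 0.0693 to 0.143. Retnla, a secreted protein of alternatively activated macrophages, read 9.69, 9.85 and 9.49 in melanophages and 11.02, 11.70 and 11.72 in macrophages. The arrays did not overlap, and the difference was -1.80 ± 0.28 SE (3.49-fold, adjusted p = 0.127). In the MHC-II-negative class Retnla differed by -3.18 ± 0.28 SE (adjusted p = 0.00605), the one gene called there among 19938 (0.00502%). Mmp12, the macrophage elastase, read 6.04, 6.81 and 6.49 against 8.61, 7.92 and 8.56, a difference of -1.92 ± 0.31 SE (adjusted p = 0.135). Ppbp, a platelet-type chemokine precursor, read 6.85, 7.91 and 7.49 against 8.76, 8.86 and 8.73, a difference of -1.37 ± 0.21 SE (adjusted p = 0.127).

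Pmepa1, an inhibitor of TGF-beta signalling, read 4.48, 5.31 and 5.07 in melanophages and 6.67, 6.19 and 7.34 in macrophages. Its difference was -1.78 ± 0.31 SE (adjusted p = 0.141). Syngr2, a membrane protein of vesicles, differed by -1.16 ± 0.20 SE, and Cd72, a lectin-type receptor mainly known from B cells, by -1.002 ± 0.17 SE, the latter a lower bound. Slc7a11, the cystine transporter that feeds glutathione synthesis, differed by -1.06 ± 0.18 SE, also a lower bound, and by -0.01 in the MHC-II-negative class. Its mean was 2.71 in both MHC-II-negative groups, near the array medians, so a difference there could be hidden. Scarna13 and Scarna17, small RNAs of Cajal bodies, differed by -1.33 ± 0.17 SE and -2.16 ± 0.37 SE, with MHC-II-negative differences of 0.06 and 0.11.

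The gene with the largest difference in either direction, AA467197, bears a clone name and was added after its values were seen. It read 3.25, 3.70 and 3.52 in melanophages and 6.66, 5.87 and 8.27 in macrophages. The difference was -3.44 ± 0.49 SE, at least 10.9-fold, with an adjusted p of 0.121. In the MHC-II-negative class it differed by 0.14 ± 0.49 SE, with all 6 arrays between 2.83 and 3.83.

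The MHC-II-negative arrays bore on the choice of these genes only through the probe set kept and the shared estimate of the spread. In them, 9 of the 12 higher genes had the same sign, 6 of them without overlap. Of the 12 lower genes, 10 had the same sign, 7 of them without overlap. Over all 19938 genes, 10958 had the same sign in both classes, and 1182 did not overlap in the MHC-II-negative class with the sign they had in the positive one. None of the 24 had the opposite direction without overlap. Among all genes, arrays of the MHC-II-negative class did not overlap for 1111 higher (5.57%) and 779 lower (3.91%). The interaction had an unadjusted p under 0.05 for 4 of the higher and 9 of the lower genes, and none passed the adjustment. Over all genes the share was 4.11%. The 24 were chosen for a large MHC-II-positive difference, which enters the interaction, so a raised count follows in part from the choice.

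**Figure D3:**
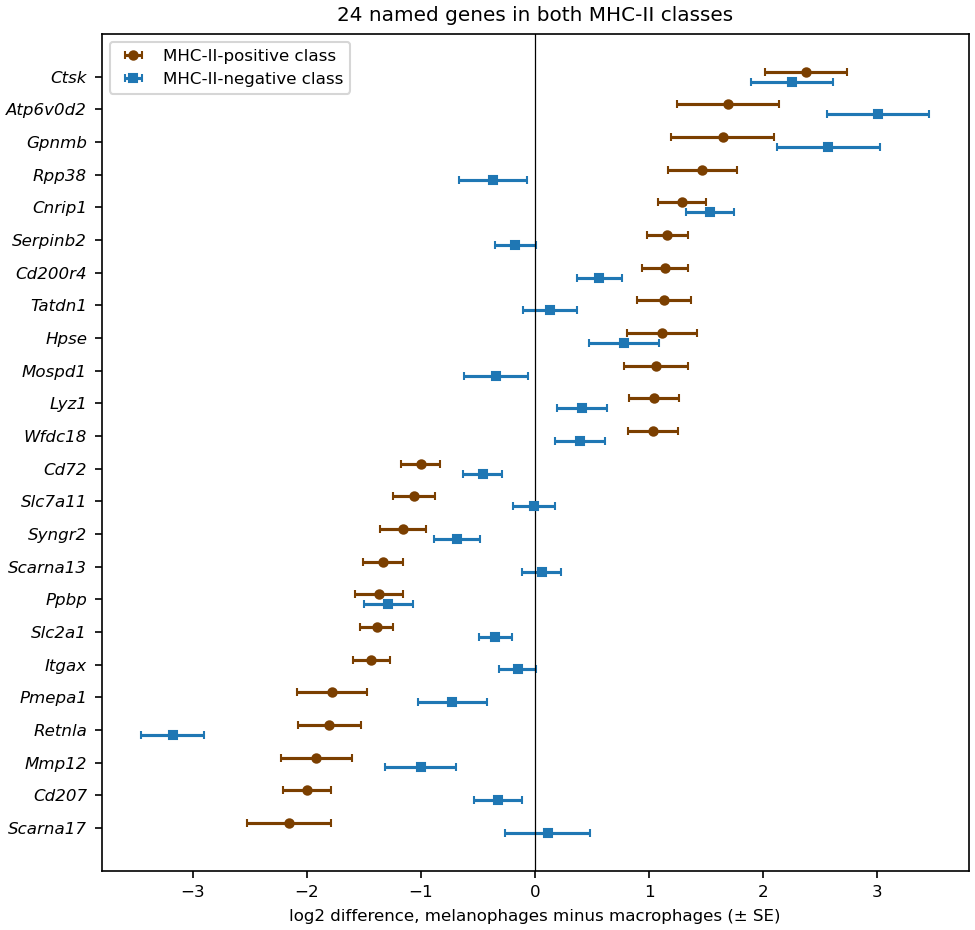
Log2 difference, melanophages minus macrophages, ± SE (x axis) for the 24 named genes (y axis) in the MHC-II-positive class (circles) and the MHC-II-negative class (squares). Ctsk and Ppbp have near-equal values in both classes, while Cd207, Itgax, Scarna13 and Scarna17 lie near 0 in the MHC-II-negative class.

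**Figure D4:**
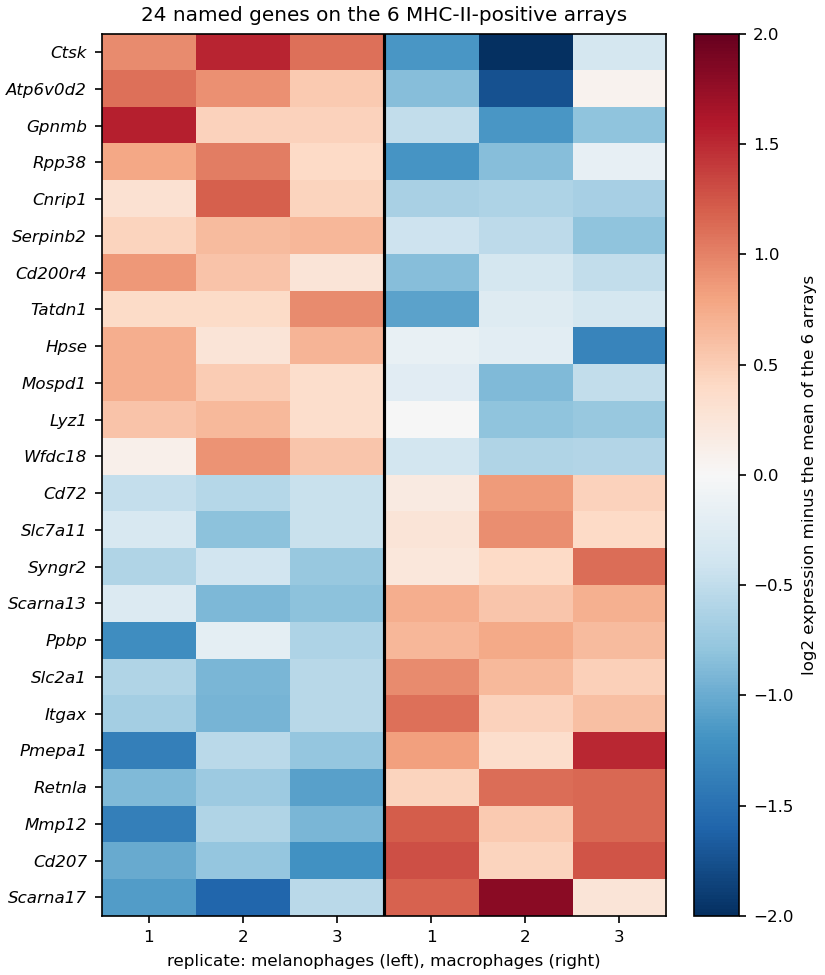
Log2 expression of the 24 named genes (y axis) on the 6 MHC-II-positive arrays (x axis), shown as colour after subtracting the mean of the 6 arrays of each gene. The melanophage arrays on the left and the macrophage arrays on the right do not overlap for any of the 24 genes, which is part of the rule that chose them.

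The sort markers were checked against the labels. Of 9 listed, 7 were measured and 0 were called, and 4 were lower at an unadjusted p under 0.05. The MHC-II chain H2-Ab1 read 11.22, 11.52 and 11.46 in melanophages and 11.61, 11.33 and 11.54 in macrophages (difference -0.09, 95% interval -0.77 to 0.58). H2-Aa differed by 0.02 (95% interval -0.73 to 0.77), with the sign changing in 3 alternatives, and H2-Eb1 by -0.63 ± 0.26 SE. In the MHC-II-negative groups H2-Eb1 lay between 5.52 and 6.86, against 9.20 to 10.45 here, so transcript and label went the same way. Itgam, which encodes CD11b, differed by -0.92 ± 0.25 SE (adjusted p = 0.508) and Fcgr1, which encodes CD64, by -0.50 ± 0.22 SE. Ccr2 transcript lay between 6.49 and 7.70 on all 6 arrays although the cells were sorted as CCR2-negative, against 3.10 to 4.15 in the MHC-II-negative groups. Cd24a, whose product was also sorted against, read 4.70, 4.14 and 4.30 in melanophages and 5.42, 5.68 and 6.83 in macrophages, a difference of -1.60 ± 0.45 SE (adjusted p = 0.543).

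Cd207 is also a Langerhans cell marker. Of 7 such markers measured, 1 was called lower and 4 had an unadjusted p under 0.05, namely Cd207, Cd24a, Cdh1 (-0.49) and Cldn1 (-0.63). Cd207 and Cd24a alone, 2 of the 7, were lower without overlap, as for 4.91% of all genes, and 2 members had differences above 0 (highest 0.29). The summed linear level of the list was 80.2 to 91.0 on the melanophage arrays and 145 to 209 on the macrophage arrays. Such a sum weighs bright members most, and the macrophage means of Cd207 and Cd24a were 5.17 and 5.98. It therefore does not describe the list as a whole. Epcam, which defines Langerhans cells, stayed near the array medians on every array, at 2.47, 2.49 and 2.35 against 2.55, 2.41 and 2.81. Zbtb46, which defines conventional dendritic cells, read 3.43, 3.45 and 3.23 against 3.47, 3.51 and 3.43, and Flt3 differed by 0.03 ± 0.26 SE with its sign changing in 3 alternatives. Of 10 conventional dendritic cell markers, 0 were called, and their summed linear level was 249 to 504 in melanophages and 386 to 598 in macrophages. The part of other cells in the lower Cd207 and Itgax was not tested, and fewer cells of a type and less RNA per cell cannot be told apart in bulk samples.

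Keratinocyte markers lay slightly higher in melanophages, with 0 of 12 called, 2 higher at an unadjusted p under 0.05 and 11 of 12 near the array medians in both groups. Their summed linear level was 96.8 to 106 in melanophages and 88.5 to 91.1 in macrophages. Melanocyte markers, which include the pigment enzymes, had 0 of 10 called and 9 of 10 near the array medians. At an unadjusted p under 0.05, 2 were higher (Mlana and Dct) and 0 lower. Without macrophage replicate 2 or 3 of the MHC-II-positive class, 0 were higher. Tyrp1 read 2.78, 2.84 and 2.88 against 2.77, 2.73 and 2.80, near the array medians in both groups. Mlana read 4.05, 3.14 and 3.05 against 2.85, 2.89 and 2.95, a difference of 0.51 ± 0.21 SE (adjusted p = 0.763), with melanophage replicate 1 above the rest. Of the monocyte markers, Fn1 differed by -1.17 ± 0.22 SE (adjusted p = 0.179), and the list had 0 of 9 called. Of 11 neutrophil markers, 0 were called, with 1 higher and 1 lower at an unadjusted p under 0.05 and a median of -0.04. S100a8 differed by 1.40 ± 0.45 SE (adjusted p = 0.611), its partner S100a9 by -0.56 ± 0.26 SE and Csf3r by -0.59 ± 0.18 SE (adjusted p = 0.591).

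Gene lists were read by counts and medians beside the 3.26% higher and 3.04% lower of all genes at an unadjusted p under 0.05, and beside the median difference of 0.0126 over all genes. Lists share members, so Itgax stands in several of them. Among 26 genes of resident and alternatively activated macrophages, 0 were called, 1 was higher and 8 were lower at an unadjusted p under 0.05, with a median of -0.34. Lyve1, a hyaluronan receptor of perivascular macrophages, read 4.64, 6.13 and 6.03 in melanophages and 6.97, 8.49 and 8.41 in macrophages. The arrays did not overlap, the difference was -2.36 ± 0.49 SE (adjusted p = 0.26), and it was -3.35 in the MHC-II-negative class. With the runs of title codes as a block, Lyve1 was called (adjusted p = 0.00435), and it was called in 1 of 25 alternatives in all. The chemokine Ccl24 differed by -0.996 ± 0.29 SE, and Pdcd1lg2, the checkpoint ligand PD-L2, by -1.37 ± 0.25 SE. Folr2 differed by -0.61 and F13a1 by -0.63, whereas the mannose receptor Mrc1 differed by -0.02 and Cd163 by 0.04.

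Of 25 integrin and adhesion genes, 1 was called lower (Itgax), and 0 were higher and 6 lower at an unadjusted p under 0.05, with a median of -0.20. Its partner chain Itgb2 read 7.43, 6.98 and 7.40 against 8.06, 7.79 and 7.72, a difference of -0.58 ± 0.17 SE. Adgre5, an adhesion receptor of leukocytes, differed by -1.12 ± 0.32 SE. Of 35 genes of glycolysis and the hypoxia response, 1 was called lower (Slc2a1), and 0 were higher and 7 lower at an unadjusted p under 0.05, with a median of -0.12. Pfkfb3, which makes the activator of phosphofructokinase, read 5.89, 6.47 and 6.02 against 7.06, 7.06 and 6.72, a difference of -0.82 ± 0.19 SE (adjusted p = 0.374). Vegfa differed by -0.69 ± 0.25 SE. The lower count of this list was 4 without melanophage replicate 1, melanophage replicate 2 or macrophage replicate 2 of the MHC-II-positive class. The glycolytic enzymes Ldha and Pgk1 differed by -0.13 and -0.08, and Hif1a by 0.08.

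Of 30 immediate early and heat shock genes, which respond to cell handling and stress, 0 were called and 7 were lower at an unadjusted p under 0.05. Differences lay below 0 for 27 of the 30, beside 9125 of all 19938 genes, and the median of the list was -0.33. Hspb1 differed by -0.58 ± 0.16 SE, Hspa1a by -0.42 ± 0.17 SE and Hsph1 by -0.68 ± 0.27 SE. The count of lower genes was 1 without melanophage replicate 1, 2 without macrophage replicate 2, and 4 without melanophage replicate 2 or macrophage replicate 1, all MHC-II-positive. It was 7 without MHC-II-positive melanophage replicate 3 and 10 without MHC-II-positive macrophage replicate 3. Of 34 transcription factors of macrophages and dendritic cells, 0 were called, and 2 were higher and 8 lower at an unadjusted p under 0.05, with a median of -0.23. Runx3 differed by -1.14 ± 0.37 SE, Irf5 by -0.62 ± 0.24 SE and Relb by -0.50 ± 0.15 SE, while the cholesterol sensor Nr1h3 differed by 0.39 ± 0.15 SE. Without MHC-II-positive melanophage replicates 1, 2 and 3 in turn, that lower count was 2, 4 and 7. Without MHC-II-positive macrophage replicates 1, 2 and 3 in turn, it was 5, 3 and 9. It was 10 without MHC-II-negative macrophage replicate 1.

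Of 24 dendritic and Langerhans cell genes, 2 were called lower (Cd207 and Itgax), and 2 were higher and 3 lower at an unadjusted p under 0.05. The lower count was 5 without melanophage replicate 3 or macrophage replicate 3 of the MHC-II-positive class. The higher count stayed at 2 without MHC-II-positive melanophage replicate 1 or MHC-II-negative macrophage replicate 1 and was 1 in the other leave-outs. Ccl17, a chemokine of antigen-presenting cells, read 8.10, 7.92 and 8.62 in melanophages and 10.70, 9.87 and 11.32 in macrophages, a difference of -2.41 ± 0.56 SE (adjusted p = 0.374). Of 13 genes of MHC class II presentation and loading, 0 were called and 1 was lower at an unadjusted p under 0.05. The invariant chain Cd74 read 11.15, 11.40 and 11.34 against 11.79, 11.88 and 11.93, a difference of -0.57 ± 0.41 SE. Of 16 co-stimulatory and checkpoint molecules, 0 were called, with 2 higher and 4 lower at an unadjusted p under 0.05. Cd80, Cd86 and Cd40 differed by -0.04, -0.19 and -0.07.

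Of 24 chemokine ligands, 0 were called, with 0 higher and 4 lower at an unadjusted p under 0.05. Of 15 chemokine receptors, 0 were called, with 1 higher and 2 lower at an unadjusted p under 0.05. Cx3cr1, the fractalkine receptor, read 4.05, 4.33 and 4.40 in melanophages and 6.75, 6.25 and 5.20 in macrophages, a difference of -1.80 ± 0.33 SE (adjusted p = 0.162). Of 17 core macrophage genes, 0 were called, with 1 higher and 2 lower at an unadjusted p under 0.05. Csf1r, Adgre1 and Mertk differed by -0.49, -0.21 and -0.04. Cd68, a lysosomal membrane protein, differed by 0.23 ± 0.08 SE with arrays that did not overlap.

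Of 41 lysosomal hydrolases and membrane proteins, 0 were called, with 3 higher and 1 lower at an unadjusted p under 0.05 and a median of -0.07. Beside Ctsk and Atp6v0d2, the higher member was Cd68, and the lower one was Naglu, an enzyme of heparan sulfate breakdown (-0.54 ± 0.24 SE, adjusted p = 0.791). Ctsd differed by -0.20, Ctsl by -0.06 and Lamp1 by 0.14. Over the leave-outs the count of higher genes ranged from 2 to 7, with 7 without MHC-II-positive macrophages replicate 3. Of 21 osteoclast-type genes, 0 were called, with 3 higher and 2 lower at an unadjusted p under 0.05, and Acp5 differed by -0.07. Of 28 melanosome and pigment genes, 0 were called and 20 lay near the array medians in both groups. At an unadjusted p under 0.05, 3 were higher (Gpnmb, Mlana and Dct) and 1 was lower (Ednrb), and the median was 0.03. The higher count was 1 without macrophage replicate 2 or 3 of the MHC-II-positive class. Dct differed by 0.16 ± 0.07 SE near the array medians. Ednrb, the endothelin B receptor, read 6.35, 6.71 and 6.55 in melanophages and 7.04, 7.55 and 7.78 in macrophages, a difference of -0.92 ± 0.27 SE.

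Of 18 lipid-associated macrophage genes, 1 was called lower (Itgax), with 3 higher and 3 lower at an unadjusted p under 0.05. Over the leave-outs the higher count ranged from 2 to 5, with 5 without MHC-II-positive macrophages replicate 3. Cd36, a scavenger receptor for lipids, read 10.78, 10.81 and 10.64 against 10.27, 10.41 and 10.49, a difference of 0.36 ± 0.08 SE (adjusted p = 0.283). Plin2, which coats lipid droplets, differed by -0.74 ± 0.22 SE and Apoe by -0.31 ± 0.10 SE. Of 32 scavenger and phagocytic receptors, 0 were called, with 1 higher and 5 lower at an unadjusted p under 0.05. The lower count was 2 without macrophage replicate 1, macrophage replicate 2 or melanophage replicate 2 of the MHC-II-positive class. It was 3 without MHC-II-positive melanophage replicate 1 or 3 or MHC-II-negative macrophage replicate 3. Axl and Mfge8, both involved in uptake of dying cells, differed by -0.84 ± 0.18 SE and -0.87 ± 0.18 SE. Of 32 C-type lectins, 1 was called lower (Cd207), with 3 higher and 3 lower at an unadjusted p under 0.05. Over the leave-outs the higher count ranged from 2 to 5, with 5 without replicate 3 of either MHC-II-positive group. Clec4d read 9.40, 9.27 and 9.17 against 8.56, 8.44 and 8.81, a difference of 0.68 ± 0.16 SE. Klra3 had the largest positive difference of the list, 1.92 ± 0.56 SE (adjusted p = 0.567), without overlap. It differed by 1.84 in the MHC-II-negative class, also without overlap. Klrb1b differed by -1.43 ± 0.45 SE, with arrays that overlapped.

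Of 26 NRF2 and glutathione genes, 0 were called, with 2 higher and 2 lower at an unadjusted p under 0.05. Gstm1, a glutathione transferase, read 8.81, 9.36 and 9.54 against 8.74, 8.55 and 8.45, a difference of 0.66 ± 0.20 SE. Gstp1 differed by -1.40 ± 0.42 SE, with melanophage values of 7.94, 6.21 and 6.03, so replicate 1 lay within the macrophage range of 7.79 to 8.36. Of 19 iron-handling genes, 0 were called, with 1 higher and 1 lower at an unadjusted p under 0.05. The higher one, the transferrin receptor Tfrc, differed by 0.50 ± 0.19 SE. The lower one, Hamp, differed by -1.46 ± 0.59 SE. It read 2.56, 2.27 and 2.71 in melanophages and 2.13, 4.70 and 5.07 in macrophages, so macrophage replicate 1 lay below all melanophage arrays. Of 17 complement genes, 1 was called lower (Itgax), with 0 higher and 5 lower at an unadjusted p under 0.05. Of 43 cell cycle genes, 0 were called, with 5 higher and 2 lower at an unadjusted p under 0.05 and 21 near the array medians. The proliferation marker Mki67 differed by 0.64 ± 0.24 SE. Of 21 inflammatory cytokines and mediators, 0 were called, with 1 higher and 1 lower at an unadjusted p under 0.05. Il1a differed by 0.76 ± 0.25 SE and Alox5 by -0.62 ± 0.28 SE. In this list and the iron list, the leave-outs gave 0 to 1 higher and 0 to 3 lower. Among 23 interferon-stimulated genes and 20 genes of cholesterol synthesis and efflux, 0 were called.

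**Figure D5:**
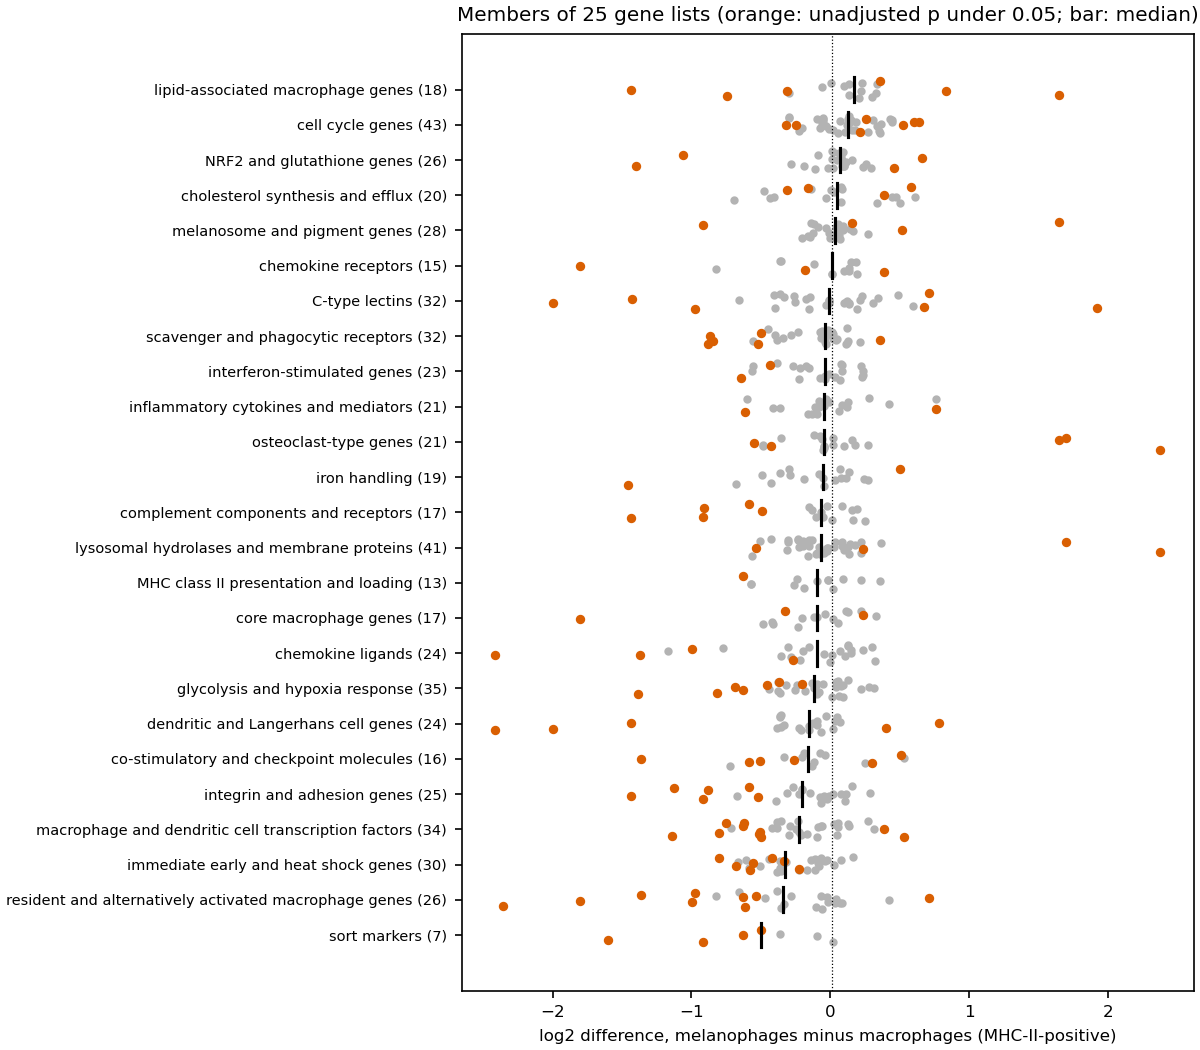
Log2 difference, MHC-II-positive melanophages minus macrophages (x axis), of each measured member of 25 gene lists (y axis, members measured in brackets), with members at an unadjusted p under 0.05 in orange and the list median as a black bar. The median of the resident and alternatively activated list lies at -0.34 and that of the lipid-associated list at 0.17.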

How the data were processed

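RNA of sorted skin cells was amplified (NuGEN Ovation Pico WTA) and hybridised to Affymetrix arrays, per the labels' protocols. The deposited log2 values were made by the authors with RMA and the package oligo, as the submitters' processing notes name them. No source used here gives their versions or filters. Of 35556 probe sets, 21789 carry 1 gene symbol, 1621 several and 12146 none. Each gene was represented by its brightest probe set on average over 12 arrays, giving 19938 genes. They were fitted with limma 3.58.1 (lmFit, eBayes) in R 4.3.3, with a mean for every group of the 12 arrays (8 residual degrees of freedom, 2.44 from the prior), two-sided, with Benjamini-Hochberg adjustment over all genes. Errors of differences are SE of the fit, and precision is limited by the number of arrays. The fit was tested on simulated data. Named were called genes, the 12 higher and 12 lower genes described in the text, sort markers, and of each list up to 4 members with the smallest p. Not every list member named by this rule is printed. Other members printed beside them, and Epcam, Zbtb46, Tyrp1, Flt3 and AA467197, were picked outside that rule after values were seen. The comparison and the 39 lists (796 entries, 737 measured) were chosen with earlier results of these data known. The Ly6C genes were not matched to a probe set with a single symbol and were not analysed here. Alternatives were 2 filters on dim genes, 3 normalizations, 2 ways to treat probe sets, the 6 arrays alone, trended and robust priors, array weights, each array left out, and 2 settings added after seeing the data.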

Additional observations from a re-analysis of the deposited data

Results flagged for a closer look

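When every probe set of the table was tested on its own (limma), signals appeared in probe sets outside the gene comparison because they carry no single gene symbol. Probe set 10343015, which has no symbol here, was higher in MHC-II-positive melanophages by 1.01 on the log2 scale. Probe set 10471154, which carries several symbols, differed by -1.61.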

How the results depend on the processing

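The main setting called 3 genes in the MHC-II-positive comparison. The count was 5 among genes above the median mean, 12 among genes with a group mean above 5 (2 higher, 10 lower), 0 after quantile normalization again, 5 of 35556 when every probe set was tested, 0 with the 6 arrays alone (1361 at an unadjusted p under 0.05), 8 with a trended prior and 6 with array weights. It was 3 with cyclic loess, median centring, the mean of probe sets and a robust prior. Leaving out 1 array gave 0 to 20 calls, and 0 to 3 for the interaction, which had 0 calls in the other settings. Both following settings were added after seeing the data. Without MHC-II-positive macrophages replicate 3 and MHC-II-negative macrophages replicate 1, the arrays farthest from their group mates, 34 genes were called (4 higher, 30 lower).

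The titles carry codes in 3 consecutive runs, each with 1 array of every group, and the labels do not say what the codes mean. With the run as a replicate block, 2 genes were called, Lyve1 (adjusted p = 0.00435) and Itgax (0.0338), while Slc2a1 (0.0529) and Cd207 (0.0609) were not. Deviations of MHC-II-positive melanophage and macrophage arrays of the same run correlated at 0.008, -0.054 and -0.248. Those of other groups in the same run correlated at -0.215 to 0.27. These values cover all genes, most of them near the array medians, so they cannot decide whether single genes varied by run. In the main setting the runs were not taken as pairs because the labels do not define them. No other paired analysis was possible because the labels give no replicate numbers. Those used here follow the order of the samples in the series, and arrays with the same replicate number stand in the same run.

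Over the leave-outs, members lower at an unadjusted p under 0.05 numbered 2 to 6 for co-stimulatory molecules, 2 to 5 for scavenger receptors, 3 to 5 for complement and 2 to 4 for sort markers, and cell cycle genes higher 2 to 7. The sign turned for 10 of the named genes, all uncalled, when 1 array was left out. The log2 difference over all alternatives ranged from -0.57 to 0.0085 for Cd209a, -0.0017 to 0.12 for Cd5 and -0.16 to 0.041 for Col1a1. It ranged from -0.030 to 0.13 for Ebf1, -0.25 to 0.28 for Flt3, -0.14 to 0.15 for H2-Aa and -0.12 to 0.011 for Ncam1. The range was -0.024 to 0.16 for Rgs5, -0.060 to 0.12 for Tagln and -0.19 to 0.028 for Tnnt3. H2-Aa was also -0.022 with cyclic loess, and without both far arrays Cd5 was -0.0017 and Flt3 -0.19. The cause of these changes was not tested.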
